A study of Mus musculus with 6 samples.

Results

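Genes of calcium entry, release and storage were followed: the mechanosensitive channel gene Piezo1, the TRP channel genes Trpv4 and Trpc1, the IP3 receptor genes Itpr1, Itpr2 and Itpr3, the store sensors Stim1 and Stim2, the plasma membrane channel gene Orai1 and the store pump gene Atp2a2. They were taken as a list of symbols of channels and pumps that act beside the polycystins. All 10 were found among the 49671 genes of the count files, and all 10 were among the 15355 genes tested after a filter on low counts. The study sequenced total RNA of confluent mouse cultures labelled iRECs (induced renal epithelial cells), which are fibroblasts turned towards a tubule fate by kidney transcription factors. Cre libraries came from clones 4, 7 and 21 after Cre transduction, labelled as a Pkd1 knockout (Pkd1 -/-). Flp libraries came from the matching clones after Flp transduction, labelled as wild type (Pkd1 fl/fl). Both groups carried the floxed Pkd1 allele of strain B6.129S4-Pkd1tm2Ggg/J, and each of the 3 pairs is 1 clone. Whether different animals gave rise to the clones is not stated in the labels, and p-values therefore cover only the spread among these 3 pairs.

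Polycystin-1 and polycystin-2, the proteins lost in autosomal dominant polycystic kidney disease, form a receptor and channel complex on the primary cilium, and polycystin-2 is also found in the endoplasmic reticulum, the main calcium store of the cell. Stores release calcium through IP3 receptors when a phospholipase makes IP3. STIM proteins sense the fall in store calcium and open ORAI channels in the plasma membrane, and SERCA pumps return calcium to the store. In tubule cells, flow and stretch open further channels, among them PIEZO1 and TRPV4, and polycystin-2 is known to bind TRPC1, TRPV4 and the IP3 receptors.

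Promoters are shown for 3 genes picked by their values here. Itpr3 was lower in Cre in every clone, and Stim2 and Orai1 had the same order of signs over the clones. Atp2a2, which was higher in Cre in every clone, and Itpr1 had no promoter in the source used. Each run holds 250 bases before and 50 after the gene start from RefSeq (GRCm38.p6), written 5′ to 3′ on the strand of the gene, and capitals mark the GC box GGGCGG on either strand (CCGCCC on the other), the letters bound by Sp1 factors.
Itpr3, chr17:27057054-27057353, plus strand: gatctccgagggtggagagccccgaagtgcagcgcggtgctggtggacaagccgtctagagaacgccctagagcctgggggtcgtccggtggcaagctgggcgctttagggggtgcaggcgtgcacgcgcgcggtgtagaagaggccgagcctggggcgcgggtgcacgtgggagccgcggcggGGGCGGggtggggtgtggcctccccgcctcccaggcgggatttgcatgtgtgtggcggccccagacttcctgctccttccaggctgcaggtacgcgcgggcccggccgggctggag
Stim2, chr5:53998273-53998572, plus strand: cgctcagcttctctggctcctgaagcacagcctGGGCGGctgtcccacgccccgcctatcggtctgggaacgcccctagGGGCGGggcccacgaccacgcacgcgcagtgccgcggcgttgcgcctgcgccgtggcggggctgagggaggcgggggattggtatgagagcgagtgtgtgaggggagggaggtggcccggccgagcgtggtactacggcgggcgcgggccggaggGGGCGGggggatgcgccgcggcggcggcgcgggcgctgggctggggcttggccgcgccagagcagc
Orai1, chr5:123014824-123015123, plus strand: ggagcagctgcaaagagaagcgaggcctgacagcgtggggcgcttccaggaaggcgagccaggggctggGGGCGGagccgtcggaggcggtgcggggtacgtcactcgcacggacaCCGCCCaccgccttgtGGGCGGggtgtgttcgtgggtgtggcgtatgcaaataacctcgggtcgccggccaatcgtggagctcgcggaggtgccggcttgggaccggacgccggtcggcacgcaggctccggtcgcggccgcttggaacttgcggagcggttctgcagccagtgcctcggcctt

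The GC box stood once in the Itpr3 promoter and 3 times in each of the Stim2 and Orai1 promoters. Those of Trpc1 and Trpv4 also held it 3 times each, that of Itpr2 5 times, that of Stim1 8 times and that of Piezo1 once. The GC box was present in 35.7% of 32851 promoters of this length. Of the 10 genes, 8 had a promoter in this table, and GC content ran from 63.0% for Trpc1 to 78.7% for Stim1, against a median of 52.7% over all promoters. The E-box CACGTG, found in 7.15% of promoters, occurred once in that of Itpr3 and in none of the other 7. The CCAAT box, found in 37.4% of promoters, occurred once in those of Stim2 and Orai1 and 2 times in that of Itpr2. The TATA box, searched as TATAAA and, for the other strand, as TTTATA, was found in 13.6% of promoters and, among the 8, in that of Piezo1 alone. The NFAT core GGAAA, searched on both strands and found in 61.3% of promoters, occurred in 0 of the 8. These matches are descriptions of letters in this window only.

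Total gene counts ran from 25196120 in Flp clone 4 to 46918341 in Cre clone 21, and counts per gene and library among the 10 genes ran from 513 to 26374. Within clones 4 and 21 Cre had more counts than Flp, and within clone 7 it had fewer. The targeted gene Pkd1 was at 145, 105 and 118 CPM (counts scaled to a common library size with TMM factors) in Cre clones 4, 7 and 21, against 199, 229 and 166 CPM in the Flp libraries. The groups did not overlap for Pkd1, whose whole-gene count also covers exons outside the floxed part. Pkd2, the gene of the partner channel, averaged 254 ± 16.5 CPM over Cre and 255 ± 37.5 CPM over Flp libraries (SD, n = 3 each). All 11 tubule epithelium markers were above 1 CPM, with summed levels of 5325 to 6655 CPM in Cre and 5532 to 6818 CPM in Flp. Of 9 fibroblast markers, 5 were above 1 CPM, and the list summed to 979 to 1094 CPM in Cre and 673.5 to 1193 CPM in Flp, mostly Fn1 and Vim, while the fibroblast marker Thy1 was at 0 in every library. None of 6 neuron markers reached 1 CPM, and 1 of 8 muscle, 1 of 6 endothelial and 2 of 6 haematopoietic markers did. The haematopoietic list summed to 193, 299 and 255 CPM in Cre clones 4, 7 and 21, against 160.1, 118 and 204 CPM in Flp, higher in Cre in every clone and mostly from Csf1r, which averaged 244 CPM over Cre and 154 CPM over Flp libraries. The part of this in the comparisons of the 10 genes was not tested.

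None of the 10 genes passed the comparison of Cre with Flp, in which each clone was its own control (edgeR quasi-likelihood test, adjusted p under 0.05). Over all genes tested 0 of 15355 passed, or 0.0%. Itpr3 and Atp2a2 were the members with one direction in all 3 clones, Itpr3 lower and Atp2a2 higher in Cre. One direction in all clones was met by 2 of 10 members, against 27.7% of all genes tested. The Cre and Flp values overlapped for all 10 members, while 4.19% of genes tested had Cre wholly above Flp and 3.95% wholly below. The median log2 fold change of the members was -0.05, against 0.00 over all genes tested, and 7 of 10 were negative, against 49.3% of all genes tested. By clone, 6, 7 and 2 of the 10 ratios were negative in clones 4, 7 and 21. By clone, the median ratio of the members was -0.05 (clone 4), -0.25 (clone 7) and 0.08 (clone 21). In bulk RNA, fewer cells expressing a gene and less RNA per cell cannot be told apart.

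**Figure D1:**
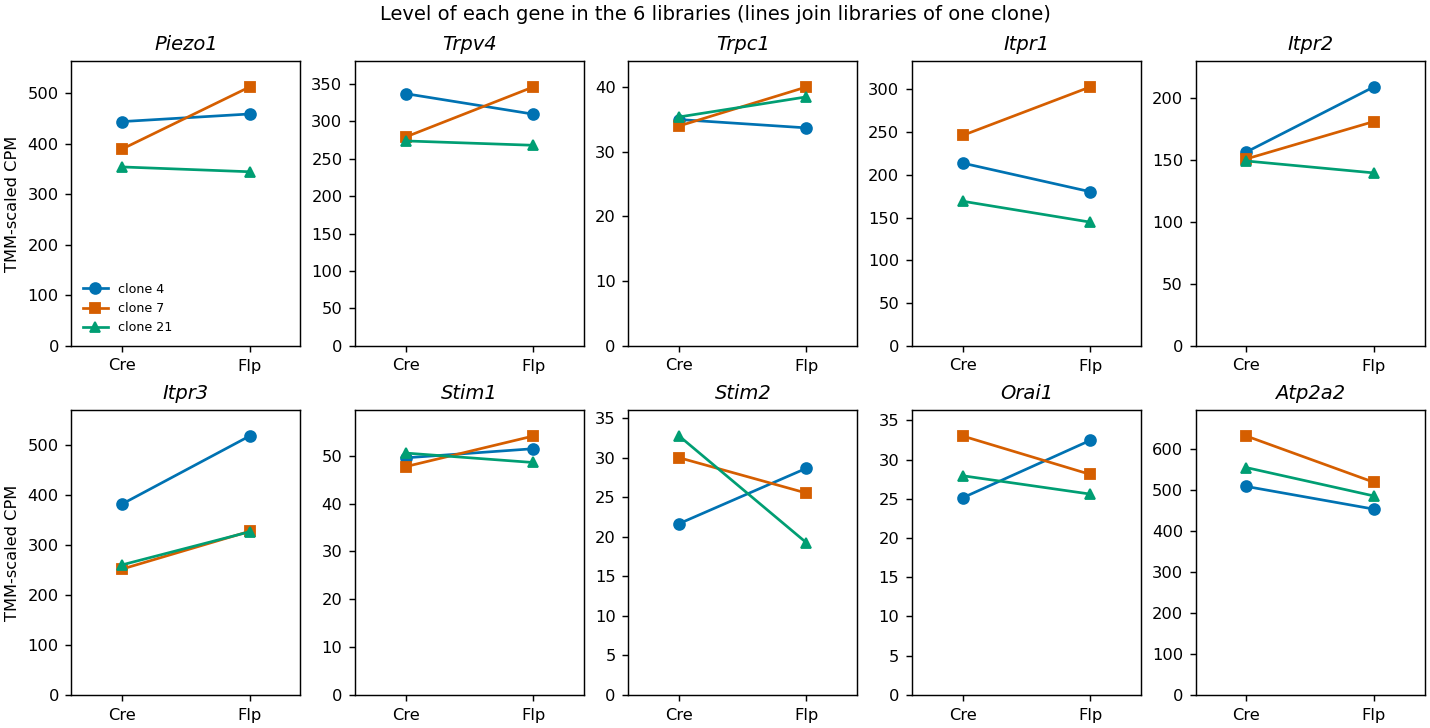
TMM-scaled CPM (linear axis from 0) of the 10 genes in each library, Cre on the left and Flp on the right, with a line joining the libraries of one clone and colours and symbols for clones 4, 7 and 21. All 3 lines slope the same way for Itpr3 (lower in Cre) and for Atp2a2 (higher in Cre), and the lines of Stim2 cross.

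Piezo1, Trpv4 and Trpc1, the entry channels, had no shared direction over the clones. Piezo1 (ENSMUSG00000014444, chromosome 8, 122481698 to 122551329, GRCm38), a large channel opened by membrane stretch, was at 443, 389 and 354 CPM in Cre clones 4, 7 and 21, against 458, 512 and 344 CPM in Flp. Flp clone 7 was the highest library and Flp clone 21 the lowest, so the spread over Flp clones was wider than the gap between groups. The log2 ratios of Piezo1 were -0.05, -0.39 and 0.04 in clones 4, 7 and 21, and the fitted log2 fold change was -0.13 (SE 0.13, edgeR adjusted p = 0.9247). Exons of Piezo1 share 24.6% of their bases with Ctu2 on the other strand, and Ctu2 was at 26.4 to 36.7 CPM over the libraries. Since the strand setting is not given in the sources used here, reads of that stretch cannot be told apart.

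Trpv4 (ENSMUSG00000014158, chromosome 5, 114622152 to 114658421) encodes a calcium channel opened by cell swelling and warmth that pairs with polycystin-2 in cilia. It was at 337, 279 and 274 CPM in Cre clones 4, 7 and 21, against 309.6, 346 and 268 CPM in Flp. The groups overlapped over nearly their whole range. Its log2 ratios were 0.12, -0.31 and 0.03, and the fitted value was -0.05 (SE 0.12, edgeR adjusted p = 0.9797). Trpc1 (ENSMUSG00000032839, chromosome 9, 95705082 to 95750375), a TRP channel subunit that binds polycystin-2, was at 34.97, 34.0 and 35.4 CPM in Cre and 33.7, 40.0 and 38.5 CPM in Flp. Its Cre libraries lay within a narrow band, with an SD of 0.716 CPM over a mean of 34.8 CPM, against an SD of 3.30 CPM in Flp (n = 3 each). The fitted log2 fold change of Trpc1 was -0.10 (SE 0.13, edgeR adjusted p = 0.9481).

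Among the release channels, Itpr3 had the Cre over Flp ratio that varied least between clones, although its level itself differed widely between them. IP3 receptors are large tetrameric channels of the store membrane, and the type 3 receptor is abundant in epithelia, where it lies near the apical pole of secretory cells. Itpr3 (ENSMUSG00000042644, chromosome 17, 27057304 to 27122223) was at 382, 252 and 260.3 CPM in Cre clones 4, 7 and 21, against 518, 327 and 326 CPM in Flp. Each Cre library was below the Flp library of its clone, but Cre clone 4 stood above the Flp libraries of clones 7 and 21, so the groups overlapped. Its log2 ratios were -0.44, -0.38 and -0.33, an SD of 0.06 over the clones. The fitted log2 fold change was -0.38 (SE 0.10), or 0.768 times the Flp level, with an edgeR p of 0.00951 and an adjusted p of 0.6192. Itpr3 was the one member with an unadjusted p under 0.05, a limit met by 6.82% of all genes tested, 3.54% higher and 3.28% lower in Cre, and it stood at rank 233 of 15355 by p. Without the clone block its unadjusted p was 0.140, and without clone 21 it was 0.0556 (edgeR). The share of all genes tested with a log2 ratio at least as far from 0 was 28.7% in clone 4, 37.6% in clone 7 and 40.0% in clone 21. Leaving out each clone gave values from -0.41 to -0.35. The antisense gene Itpr3os, which overlaps an exon, had at most 0.189 CPM.

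The 2 other receptors did not share one direction over clones. Itpr1 (ENSMUSG00000030102, chromosome 6, 108213096 to 108551109), the receptor type that dominates in neurons, was at 214, 246 and 169 CPM in Cre clones 4, 7 and 21, against 180.4, 303 and 145 CPM in Flp. Clone 7 was the highest in each group and clone 21 the lowest, and the highest library stood 2.09 times above the lowest. Its log2 ratios were 0.24, -0.30 and 0.22, with a fitted value of 0.06 (SE 0.14, edgeR adjusted p = 0.9816). The sign of the Itpr1 and Trpv4 ratios was positive in the clones where the Cre library was the deeper and negative in clone 7, and the part of depth in this was not tested.

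Itpr2 (ENSMUSG00000030287, chromosome 6, 146108299 to 146502223), the receptor most sensitive to IP3, was at 156, 151 and 149 CPM in Cre, against 209, 181 and 139.5 CPM in Flp. The Cre libraries lay close together (152 ± 3.81 CPM), while the Flp libraries were spread more widely (176 ± 34.9 CPM, SD, n = 3 each). Its log2 ratios were -0.42, -0.26 and 0.10 in clones 4, 7 and 21, and the fitted value was -0.19 (SE 0.13, edgeR adjusted p = 0.8736).

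**Figure D2:**
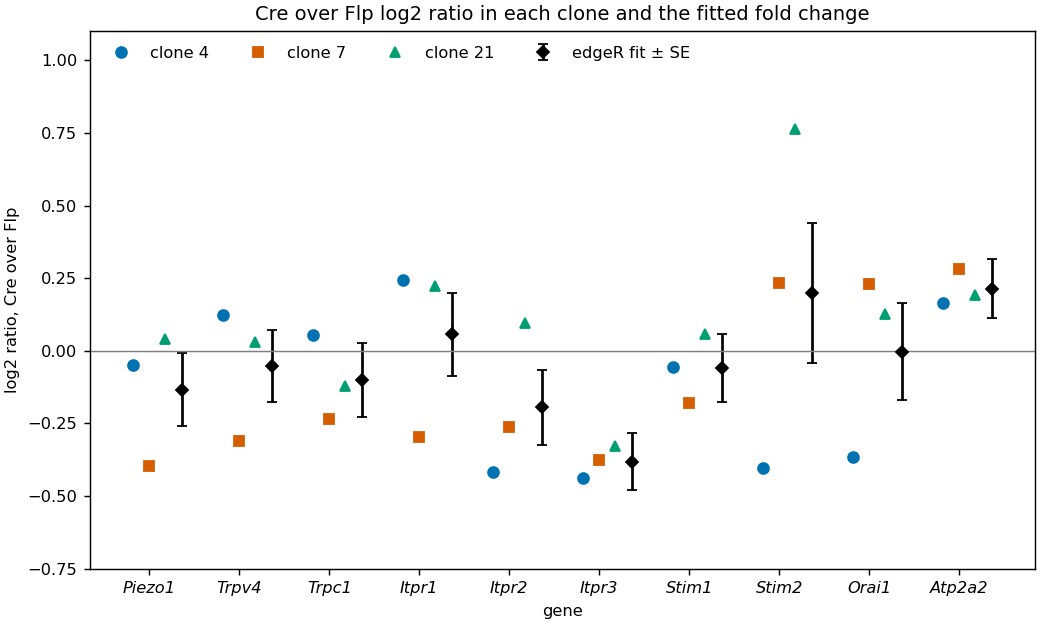
Cre over Flp log2 ratio of each gene in clones 4, 7 and 21 (coloured symbols) and the edgeR log2 fold change with its standard error (black diamonds and bars). The 3 clones lie on one side of 0 for Itpr3 and Atp2a2, and the widest gap between clones is that of Stim2, from -0.40 to 0.76.

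Shares of the 3 receptors in their summed level per kb of exon do not depend on library scaling. Itpr3 made up 65.6%, 54.2% and 59.9% in Cre clones 4, 7 and 21, against 70.6%, 55.8% and 67.6% in Flp. It was the most abundant receptor in all 6 libraries, and its share was lower in Cre in every clone. Itpr1 made up 18.1%, 26.1% and 19.2% in Cre, against 12.1%, 25.4% and 14.8% in Flp. The Itpr2 share was 19.0% ± 2.37 in Cre and 17.9% ± 0.776 in Flp (SD, n = 3 each). The log2 ratio of Itpr1 to Itpr3 was higher in Cre by 0.68, 0.08 and 0.55 in clones 4, 7 and 21, a mean of 0.44 ± 0.32 (SD, n = 3). For Itpr2 to Itpr3 the differences were 0.02, 0.11 and 0.42, a mean of 0.19 ± 0.21 (SD, n = 3). Both gave a two-sided exact permutation p of 0.25, the smallest that 3 clone pairs allow, and an adjusted p of 0.375 over the 3 gene pairs compared (exact sign-flip test, n = 3). With the longest transcript in place of merged exons as the length, the Itpr3 share was 54.8%, 42.5% and 49.2% in Cre and 61.4%, 44.1% and 57.7% in Flp.

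**Figure D3:**
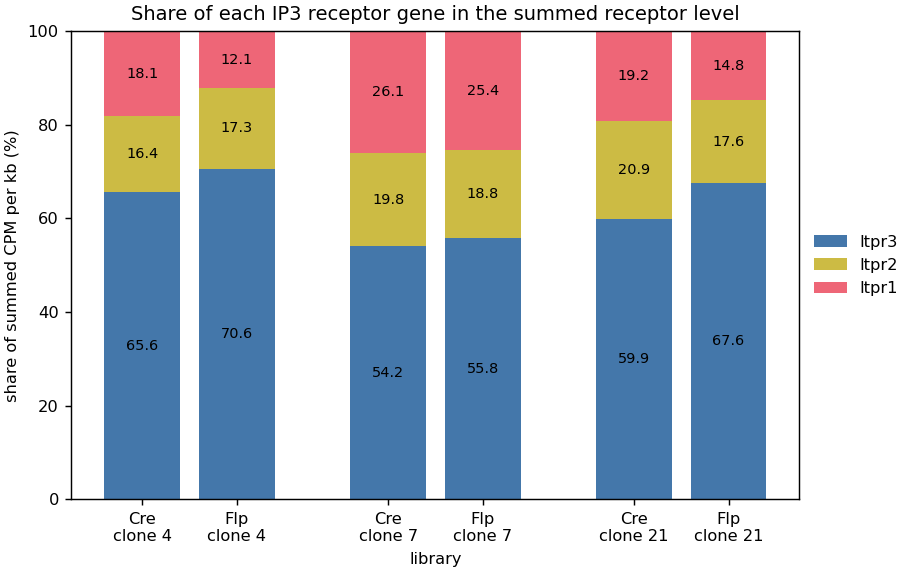
Share in percent of Itpr3, Itpr2 and Itpr1 in the summed CPM per kb of merged exons in each library, Cre left of Flp within each clone. Itpr3 holds 54.2% to 65.6% in Cre and 55.8% to 70.6% in Flp.

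Of the store sensors and the entry channel, Stim2 and Orai1 had ratios of both signs with wide gaps between clones, and Stim1 had a narrow range. Stim2 (ENSMUSG00000039156, chromosome 5, 53998499 to 54121057), the sensor that responds to small falls in store calcium, was at 21.7, 30.0 and 32.7 CPM in Cre clones 4, 7 and 21, against 28.7, 25.5 and 19.2 CPM in Flp. Cre was the lower in clone 4 and the higher in clones 7 and 21. Its log2 ratios were -0.40, 0.23 and 0.76, a spread of 1.17 between clones 4 and 21, while the counting error of any ratio of the 10 genes was at most 0.0735 on the log2 scale. That error covers counting only. In clone 21, 14.9% of all genes tested had a ratio at least as far from 0 as that of Stim2. The fitted log2 fold change was 0.20 (SE 0.24, edgeR adjusted p = 0.9481).

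Stim1 (ENSMUSG00000030987, chromosome 7, 102267806 to 102437319), the main sensor of store depletion, had the narrowest range of the 10 genes. It was at 49.6, 47.8 and 50.6 CPM in Cre and 51.5, 54.1 and 48.6 CPM in Flp, and its highest library was 1.13 times the lowest. The fitted value was -0.06 (SE 0.12, edgeR adjusted p = 0.9747). The log2 ratio of Stim1 to Stim2 per kb differed between Cre and Flp by 0.35, -0.41 and -0.71 in clones 4, 7 and 21, a mean of -0.26 ± 0.55 (SD, n = 3, two-sided exact sign-flip permutation p = 0.5). Orai1 (ENSMUSG00000049686, chromosome 5, 123015074 to 123030456), the pore of store-operated entry, was at 25.1, 33.0 and 27.9 CPM in Cre, against 32.4, 28.1 and 25.6 CPM in Flp. Its ratios of -0.37, 0.23 and 0.13 had the signs of those of Stim2, and the fitted value was 0.00 (SE 0.17, edgeR adjusted p = 0.9992).

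Atp2a2 (ENSMUSG00000029467, chromosome 5, 122453513 to 122502225) encodes SERCA2, the pump that refills the store in most cell types. It was at 509.5, 633 and 556 CPM in Cre clones 4, 7 and 21, against 454, 520.0 and 486 CPM in Flp. Each Cre library was above the Flp library of its clone, while Cre clone 4 stood below Flp clone 7. Its log2 ratios were 0.17, 0.28 and 0.19, an SD of 0.06, and the fitted log2 fold change was 0.21 (SE 0.10), with an edgeR p of 0.0847 and an adjusted p of 0.786. Ratios at least as far from 0 were found for 63.8%, 47.8% and 57.6% of all genes tested in clones 4, 7 and 21. Leaving out each clone gave values from 0.18 to 0.24.

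Levels were compared between genes as CPM per kb of merged exons. The order over the 6 libraries was Atp2a2 at 86.6, Trpv4 at 74.2, Piezo1 at 41.9, Itpr3 at 38.2, Orai1 at 12.5, Itpr1 at 11.4, Itpr2 at 11.1, Stim2 at 5.13, Stim1 at 4.86 and Trpc1 at 4.49 CPM per kb. The ranges of neighbours in this order did not overlap between Trpv4 and Piezo1, between Itpr3 and Orai1 and between Itpr2 and Stim2. Within the 4 blocks so formed, neighbours overlapped. The order changed with the length used: with the longest transcript, Itpr1 stood at 21.2, Stim1 at 11.6 and Stim2 at 5.33 CPM per kb, and Trpv4 (93.6) stood above Atp2a2 (92.8). Pkd2 was at 25.1 and Pkd1 at 9.20 CPM per kb of merged exons.

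**Figure D4:**
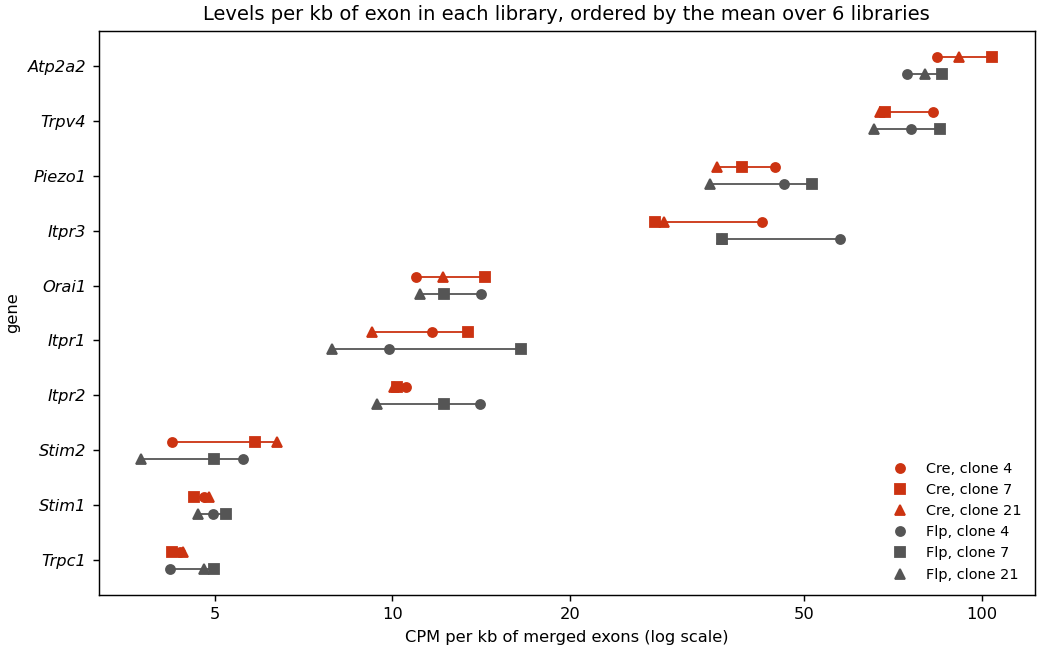
CPM per kb of merged exons (log axis) of the 10 genes in each library, ordered by the mean over 6 libraries, with Cre above Flp for each gene, symbols for clones and lines spanning the 3 libraries of a group. Atp2a2 and Trpv4 lie above 65 CPM per kb in every library, and Trpc1, Stim1 and Stim2 below 7.

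Other genes of calcium handling were described from 11 further lists with 196 symbols, of which 132 were tested. None passed in edgeR with the clone block, in either direction. In all 3 clones 34 of the 132 genes (25.8%) were lower in Cre, against 13.1% of all genes tested. Another 9 (6.82%) were higher in all 3 clones, against 14.6%. Of these 9, 4 were among the 22 genes of calmodulin, calcineurin and NFAT. The lists of mechanosensitive channels, store-operated entry, store release, mitochondrial uptake and IP3 production held 1 each, and the other lists 0. The median log2 fold change of the 132 genes was -0.09, against 0.00 over all genes tested. By list, the median was -0.17 for 12 mechanosensitive channels, -0.16 for 9 other TRP channels, -0.15 for 8 other store-operated entry genes, -0.14 for 16 store release channels and regulators, -0.20 for 11 pumps and exchangers and -0.18 for 13 chaperones of the endoplasmic reticulum. It was 0.00 for 5 polycystin partners, 0.02 for 11 genes of mitochondrial uptake, 0.00 for 18 genes of IP3 production, -0.02 for 22 genes of calmodulin, calcineurin and NFAT and 0.24 for 7 purinergic receptors and pannexins. Genes lower in Cre in all clones were 8 of 16 in the store release list, 7 of 13 among chaperones, 5 of 12 among mechanosensitive channels, 4 of 18 in IP3 production, 2 of 9 among other TRP channels, 2 of 11 among pumps and exchangers, 2 of 11 in mitochondrial uptake, 2 of 22 in the calmodulin list, 1 of 5 among polycystin partners, 1 of 8 in store-operated entry and 0 of 7 among purinergic receptors and pannexins.

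Piezo2, the second PIEZO channel and the touch sensor of sensory neurons, had the smallest p of the other mechanosensitive channels. It was at 2.53, 2.13 and 1.07 CPM in Cre clones 4, 7 and 21, against 5.57, 5.92 and 4.65 CPM in Flp, and the groups did not overlap. Its fitted log2 fold change was -1.57 (SE 0.32, edgeR adjusted p = 0.6065). With DESeq2 and the clone block the adjusted p of Piezo2 was 0.00528, where 1.37% of genes were called. It was 0.0264 in edgeR when genes of low count were kept, where 0.792% were called. Pkd1 was the one other gene of the 11 lists that these 2 fits called. Piezo1 was at 41.9 and Piezo2 at 0.212 CPM per kb of merged exons. Tmem63b, a stretch-opened cation channel of the OSCA family, averaged 323 ± 49.1 CPM over Cre and 396.5 ± 40.0 CPM over Flp libraries (SD, n = 3 each), a log2 fold change of -0.30 (SE 0.10, edgeR adjusted p = 0.6674).

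Of the 3 ORAI genes, Orai3 stood highest per kb, at 19.0 CPM per kb of merged exons, against 12.5 for Orai1 and 6.53 for Orai2. Orai3, which can join Orai1 in mixed channels, was at 43.5, 53.8 and 44.9 CPM in Cre clones 4, 7 and 21, against 37.8, 33.1 and 31.6 CPM in Flp. All Cre libraries were above all Flp libraries. Its log2 fold change was 0.47 (SE 0.14, edgeR adjusted p = 0.6455) and a DESeq2 adjusted p of 0.256 with the clone block. Orai2 had clone ratios of 0.21, -0.61 and -0.47, and Saraf, which slows store-operated entry, had -0.36, 0.02 and 0.22 in clones 4, 7 and 21. The tether genes Esyt1 and Esyt2 had fitted values of -0.20 and -0.18. Orai2 and Saraf were chosen after their values were seen, as parts of the same entry route.

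Ryanodine receptors, the other release channels of the store, were scarce. Ryr1 was at 0.528 CPM per kb, averaging 8.07 ± 4.06 CPM over Cre and 15.0 ± 4.05 CPM over Flp libraries (SD, n = 3 each), with clone ratios of 0.14, -1.78 and -1.24. Itpripl2, a relative of an IP3 receptor binding protein, averaged 51.2 ± 10.5 CPM over Cre and 75.2 ± 1.24 CPM over Flp libraries (SD, n = 3 each), a log2 fold change of -0.58 (SE 0.15, edgeR adjusted p = 0.6233). The apoptosis gene Bok and the endolysosomal channel gene Tpcn1, the most abundant of this list, had fitted values of -0.27 and -0.02. Among pumps and exchangers, Atp2b1 and Tmem165 were the most abundant, with fitted values of 0.06 and -0.10. The sodium and calcium exchanger Slc8a2 averaged 2.39 ± 0.652 CPM over Cre and 4.91 ± 1.37 CPM over Flp libraries (SD, n = 3 each). Sln, an inhibitor of SERCA pumps, averaged 0.259 ± 0.273 CPM over Cre, where clone 7 had none, and 0.777 ± 0.346 CPM over Flp libraries (SD, n = 3 each).

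**Figure D5:**
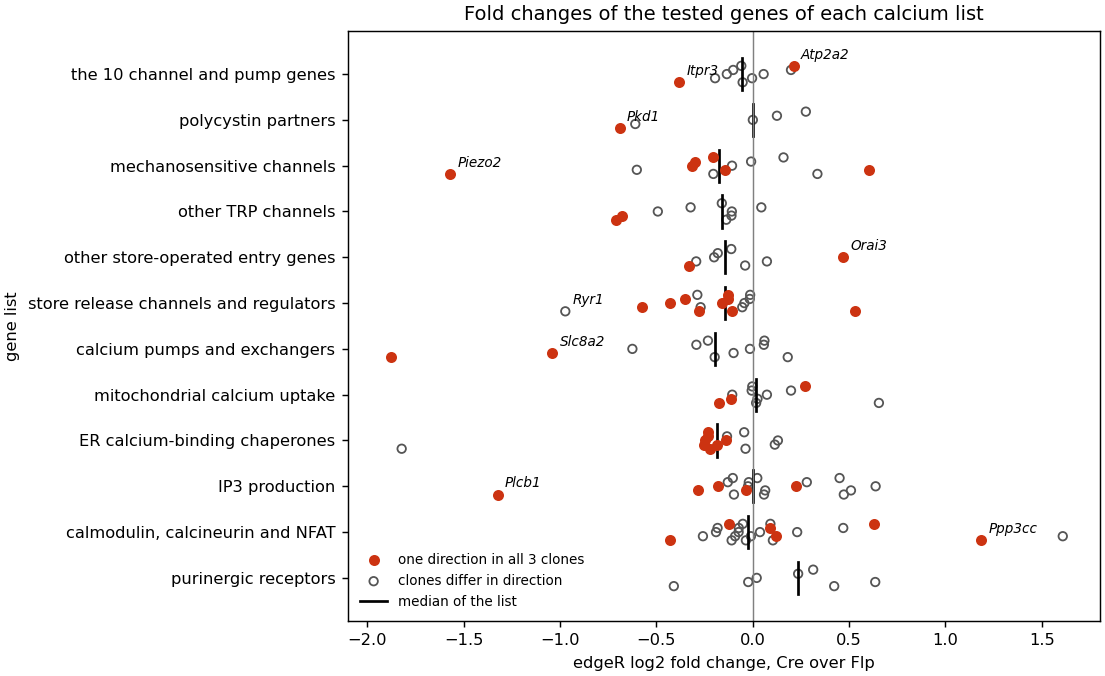
edgeR log2 fold change, Cre over Flp, of every tested gene in the 12 calcium lists, the 10 channel and pump genes at the top, with filled points for genes of one direction in all 3 clones, open points for the others and a black bar at each list's median. Piezo2 stands at -1.57, Orai3 at 0.47, Itpr3 at -0.38 and Atp2a2 at 0.21.

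Among chaperones, the calcium buffer gene Calr had a log2 fold change of -0.23 and Hspa5 one of -0.04, while Calu and Pdia6 had -0.24 and -0.25 (edgeR adjusted p = 0.7496 and 0.7594). Of the genes of IP3 production, Plcb1, a phospholipase, had -1.32 (SE 0.49) with 1.004 ± 0.484 CPM over Cre and 2.48 ± 1.04 CPM over Flp libraries (SD, n = 3 each), and Inpp5a, which removes a phosphate from IP3, had -0.28 (SE 0.10). The abundant phospholipases Plcb3 and Plcg1 had -0.03 and -0.10. For calcineurin and NFAT, Ppp3cc had 1.19 and Nfatc2 had -0.43, and the abundant Calm3 and Nfat5 had -0.11 and -0.09. Micu2, a gatekeeper of mitochondrial uptake, had 0.65, with clone ratios of -0.03, 0.80 and 1.19. Ppp3cc, whose ratios were 0.365, 1.366 and 1.75, lies on chromosome 14 (from 70217865), as does Micu2 (from 57916261). Vdac2, Ppp3cb and Camk2g, before base 21845879 of that chromosome, were lower in Cre in both clone 7 and clone 21. Nfatc4, from 55823144, had ratios of 2.733, -0.353 and 2.573 in clones 4, 7 and 21. Its level was low, from 0.1615 CPM in Flp clone 4 to 4.922 CPM in Flp clone 7. Whether other genes near Micu2 and Ppp3cc moved with them was not tested. The abundant TRP genes Trpm7 and Mcoln1 had -0.14 and -0.11, and Trpm4 and Trpv3 had -0.68 and -0.71. All of these missed the edgeR threshold over all genes tested. Plcb1, Plcg1, Nfatc2 and Trpm7 lie on chromosome 2, from base 126791565 on. Their clone 21 ratios were -2.31, -0.43, -0.57 and -0.56. Itpripl1, Plcb4, Slc24a3 and Fkbp1a of the same stretch were also lower in Cre there. In clone 4, Trpm7, Plcb4 and Plcg1 were higher in Cre. Plcb1, Nfatc2, Itpripl1 and Fkbp1a count among the genes lower in all clones. The part of position in these values was not tested.

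Ratios were also set beside those of neighbouring genes on the chromosome. Median log2 ratios of the genes within 5 Mb of each member with a mean of at least 5 CPM lay between -0.54 and 0.22 over the 30 values of 10 genes and 3 clones, and 1 of the 30 was farther than 0.3 from 0. That was the median of 34 neighbours of Itpr2 in clone 7, at -0.54, where Itpr2 itself had -0.26. The neighbours of Itpr2 had 0.06 in clone 4 and -0.07 in clone 21. The median of 146 neighbours of Itpr3 was -0.09, 0.04 and -0.04 in clones 4, 7 and 21. That of 90 neighbours of Atp2a2 was 0.00, -0.06 and 0.00. The targeted gene Pkd1 (chromosome 17, 24549834 to 24596508) lies within 5 Mb of Itpr3. The part of this position in the Itpr3 values was not tested.

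For Cre against Flp, the authors' deposited table had the same sign for all 10 genes and listed none at an adjusted p under 0.05, where 1.37% of its genes with an adjusted p were. In the authors' deposited table Itpr3 had -0.35 on the log2 scale (DESeq2 adjusted p = 0.0951) and Atp2a2 had 0.19 (adjusted p = 0.748). Mean normalised counts in the authors' deposited table were 0.893 to 1.08 times those computed from the count files for 9 of the 10 genes. For Trpc1 the authors' deposited table lists 781, against 1223 from the count files, or 0.638 times, so the level of Trpc1 depends on the source.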

How the data were processed

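Raw counts for Ensembl genes were deposited by the authors, 1 file per library, made per the submitters' processing notes with STAR 2.5.2b-2, featureCounts 1.6.0.3, Trim Galore 0.4.3.0 and FastQC 0.67 on mm10 and GRCm38. How strand was set in counting, whether reads were paired and which gene annotation was used is not given in the sources used here. The authors' deposited table, made with DESeq2 2.11.40.1 per those notes, lists for each gene a mean normalised signal, a log2 fold change and its error, the Wald score and the p-value, raw and adjusted. Its direction was read as Cre over Flp, since 95.6% of signs over 12825 genes matched those computed here.

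The 10 genes and all lists were chosen with earlier results of these data known. Symbols, positions and exon lengths came from GENCODE M21 on GRCm38, with entries for 49412 of 49671 identifiers. Tests were run on these counts in R 4.3.3 using edgeR 4.0.16 (filterByExpr, TMM, quasi-likelihood test with clone as a block), limma 3.58.1 and DESeq2 1.42.0, with Benjamini-Hochberg adjustment over all genes tested. Standard errors came from the F statistic. Clone ratios used a prior count of 2. The block joins Cre and Flp libraries that the labels give to the same clone, and the deviations of same-clone libraries had correlations of 0.20 (clone 4), 0.11 (clone 7) and 0.30 (clone 21), against -0.27 to 0.02 between clones. Named genes outside the 10 were Pkd1, Pkd2 and the 2 genes most like each of the 3 members of widest range. Of each list, some of the 2 with the smallest p and the 2 with the highest CPM were named, with the exceptions stated. Further exceptions were Ppp3cb, Camk2g and Nfatc4 on chromosome 14 and Itpripl1, Plcb4, Slc24a3 and Fkbp1a on chromosome 2. These further genes were named for their position, with their values known. The alternatives were other tools, scalings and filters, no block, and leaving out each clone. Some items are not reported here. Figures used matplotlib 3.10.9.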

Additional observations from a re-analysis of the deposited data

Results flagged for a closer look

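For 8 of the 10 genes the Cre over Flp log2 ratio had opposite signs in at least a pair of clones, and these differences between clones were not tested, since each clone has 1 library per group. The gap between the clones with the highest and the lowest ratio was 1.17 for Stim2 (0.76 in clone 21 and -0.40 in clone 4) and 0.60 for Orai1 (0.23 in clone 7 and -0.37 in clone 4). For Itpr1 it was 0.54 (0.24 in clone 4 and -0.30 in clone 7) and for Itpr2 0.51 (0.10 in clone 21 and -0.42 in clone 4). For Piezo1 the gap was 0.43 (0.04 in clone 21 and -0.39 in clone 7), and for Trpv4 it was 0.43 as well (0.12 in clone 4 and -0.31 in clone 7). For Trpc1 the gap was 0.29 (0.05 in clone 4 and -0.23 in clone 7), and for Stim1 0.24 (0.06 in clone 21 and -0.18 in clone 7).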

How the results depend on the processing

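No member passed an adjusted p of 0.05 in any of the fits run, and the adjusted p of Itpr3 ranged from 0.194 to 1 over them. Over all genes, where edgeR with the filter called 0 (1047 at an unadjusted p under 0.05), DESeq2 with the replicate block called 199, DESeq2 without the block 20 and edgeR with low counts kept 224. At an unadjusted p under 0.05 these held 1209, 981 and 1656 genes. edgeR without the replicate block called 0 genes (716 unadjusted), and limma-voom with the block 0 (1116 unadjusted). Leaving out each clone gave 0 genes called each time (516 to 1709 unadjusted). The cause of these differences was not tested, apart from the filter setting itself, which tests 28286 genes without it. For Orai1, at 0.00, the sign turned with limma-voom (0.003), library size only (0.016), no filter (0.006) and without clone 4 (0.178). It also turned without clone 4 for Itpr1 (-0.038), without clone 7 for Trpv4 (0.078) and Stim1 (0.003), and without clone 21 for Itpr1 (-0.03) and Stim2 (-0.088). The other 111 of 120 alternative values of the fold changes kept their sign. Over the 3 fits that leave out a clone, values ran from -0.14 to 0.078 for Trpv4, -0.038 to 0.236 for Itpr1, -0.121 to 0.003 for Stim1, -0.088 to 0.498 for Stim2 and -0.119 to 0.178 for Orai1. With no change of sign they ran from -0.225 to -0.003 for Piezo1, -0.343 to -0.084 for Itpr2 and -0.179 to -0.032 for Trpc1, and for the ratios between genes from -0.56 to -0.032 (Stim1 to Stim2), 0.068 to 0.268 (Itpr2 to Itpr3) and 0.315 to 0.617 (Itpr1 to Itpr3). The members' median ran from -0.095 to 0.00 when a clone was left out. With or without the replicate block no member was called, and Itpr3 had -0.389 without it (edgeR adjusted p = 0.980). Depth limits low genes such as Sln and Trpv3 more than the 10 genes.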

Other observations

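Among the 6 libraries, Flp clone 7 held the highest level for 5 of the 10 genes (Piezo1, Trpv4, Trpc1, Itpr1 and Stim1), where it held the highest level for 14.8% of all genes tested. Flp clone 21 held the lowest for 5 (Piezo1, Trpv4, Itpr1, Itpr2 and Stim2), against 18.1% of all genes tested. The pattern of the 3 members with the widest range was set against 10741 genes averaging 5 CPM or more, by the root mean square difference of centred log2 CPM over the 6 libraries, which share clones and depth. Nearest to Itpr3 were Rab11fip5 (0.0599) and Zfp516 (0.067), whose clone ratios were -0.31, -0.39 and -0.46 for Rab11fip5 and -0.47, -0.53 and -0.34 for Zfp516 in clones 4, 7 and 21. Nearest to Itpr1 were Rapgef3 (0.104) and Hebp1 (0.113), and nearest to Stim2 were Whrn (0.0482) and Phlda3 (0.0681). Whrn had clone ratios of -0.34, 0.18 and 0.84, where Stim2 had -0.40, 0.23 and 0.76. Each of these genes was picked for its small difference over the same libraries, so like clone ratios follow from the choice.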
